A study of Prunus persica with 8 samples.

Results

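The first 10 Mb of peach chromosome Pp02, called the arm here, carries 695 genes of the deposited expression table (start before position 10000000, peach genome version 2). Of these, 492 averaged at least 0.5 TPM over the 8 trees and are described here, whatever their function. Another 202 lay under that level, 69 of them listed at 0 in all 8 trees, and 1 was set aside. The table holds 26873 genes, of which 20055 reached the same level. TPM is a read count divided by gene length and scaled to the same total in each tree. The arm runs from Prupe.2G000100 (start 93474, mean 10.1 TPM) to Prupe.2G069400 (start 9897305, mean 18.1 TPM). The next gene, Prupe.2G069600, starts at 10006286 and averaged 8.69 TPM. The faintest member, Prupe.2G002600, averaged 0.50 TPM, and the first gene under the minimum, Prupe.2G036000, averaged 0.493 TPM.

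RNA came from lateral shoot tips of 4 pillar trees (trees 4, 7, 8 and 10) and 4 standard trees (trees 7, 8, 9 and 10) of Prunus persica. All were mature, untreated, field-grown siblings of an F2 population that segregated for growth habit, so the growth habits are not lines that differ at a single gene. The series description gives 4 shoot tips per tree, the methods 3. Pillar trees 4 and 7 were read in sequencing lane 8, and the other 6 trees in lane 6. Each tree is 1 library, and fewer cells of a type cannot be told apart from less RNA per cell in such tissue samples.

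Pillar growth, with narrow upright branches, is caused by loss of TAC1, a gene that promotes outward branching. Heterozygous trees have an upright stature, apart from both pillar and standard growth. The methods give the pillar trees measured in this population as tac1/tac1 and the standard trees as carrying intact TAC1. TAC1 (Prupe.2G194000, start 23233979) lies on the same chromosome, far beyond the arm. It had 0.802, 0.830, 1.15 and 1.27 TPM in pillar trees 4, 7, 8 and 10, against 23.8, 17.2, 25.9 and 28.2 TPM in standard trees 7, 8, 9 and 10, so the labels of all 8 trees match it. Among the annotated genes of the arm, disease resistance genes of the NB-LRR class form the largest group. They encode intracellular receptors that detect pathogen proteins, and such genes often sit in clusters of similar copies.

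Depth was alike across trees, between 18429259 and 23994336 reads per tree as recovered from the TPM values. The 492 members took 1.18 to 1.404% of all TPM, between 327550 and 427724 reads per tree. Their mean levels ran between 0.50 and 1141 TPM, with a median of 8.53 TPM, against 15.1 TPM for the 1942 genes on the rest of Pp02.

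For 364 of 492 members (74.0%) the fitted fold was under 1.5 and no wide gap, as defined later, parted the trees, where 92.0% of all tested genes were even in this sense. A fitted fold past 1.5 in either direction was found for 24.2% of members and for 5.68% of all tested genes. Of the 22 members above 100 TPM, 21 were of this even kind. The most abundant member, Prupe.2G031000 (start 3374085), had 1039, 1351, 862 and 1237 TPM in pillar trees 4, 7, 8 and 10, against 824, 1619, 1064 and 1132 TPM in standard trees 7, 8, 9 and 10. The ranges overlapped and the log2 fold change (pillar over standard, on log2(TPM + 0.5)) was -0.03 ± 0.24 (SE). Prupe.2G012200 averaged 528 ± 54.0 TPM in pillar trees and 583 ± 28.3 TPM in standard trees (errors are SD over 4 trees). Prupe.2G047300 averaged 599 ± 111 TPM in pillar trees and 552 ± 94.6 TPM in standard trees, and Prupe.2G009800 averaged 560 ± 190 TPM in pillar trees and 623 ± 172 TPM in standard trees. The ranges of pillar and standard trees overlapped in all 4 of these abundant genes, and the lowest of their unadjusted limma p-values was 0.284, for Prupe.2G012200.

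The first comparison asked which members differ between pillar and standard trees. With limma on all 20055 genes, 0 of 492 members had a Benjamini-Hochberg adjusted p under 0.05, where 0.12% of all tested genes did. The lowest adjusted p on the arm was 0.350, for Prupe.2G006700, a gene without annotation at 0.898 TPM in pillar trees and 2.34 TPM in standard trees on average. At an unadjusted p of at most 0.05 there were 87 members (17.7%), where 4.77% of all tested genes passed. Requiring also a fold of 1.5 or more and 5 or more reads on average in each of the growth habits left 63 members (12.8%), where 2.23% of all tested genes remained. Of the 63, 31 were higher in pillar trees (background 1.12%) and 32 lower (background 1.11%). That split moved with the scaling, at 32 higher and 22 lower with upper-quartile scaling, and 37 higher and 17 lower with limma voom on the recovered reads. The same criteria were met by 12.5% of the 257 genes from 10 to 17 Mb of Pp02, the stretch next to the arm, whose end was chosen after the values were seen, by 4.04% of genes beyond 17 Mb, and by 1.61% on the other chromosomes. The median log2 fold change was -0.11 on the arm, against -0.09 over all tested genes.

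Despite those folds, the share of members that kept the growth habits apart was near that of all tested genes. For 19 members (3.86%) all trees of 1 growth habit lay above all trees of the other, 4 higher and 15 lower in pillar trees, where 2.93% of all tested genes did so. On the rest of Pp02, 7.11% of genes did. Leaving out trees raises such counts by construction, so each stands here beside the share of all tested genes in the same trees. Without pillar tree 4 the number of members whose groups did not overlap was 67 (13.6%, where 14% of all tested genes did). Without pillar tree 8 it was 30 (6.10%, where 5.56% did), and without pillar tree 10 it was 49 (9.96%, where 5.45% did). Without standard tree 8 it was 143 (29.1%, where 5.71% did).

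The number meeting the p, fold and read criteria was lower without several single trees, though it stayed above the share of all tested genes wherever that share is given. It was 25 without pillar tree 7 (5.08%, where 2.22% of all tested genes did), 29 without pillar tree 8 (5.89%, where 2.53% did) and 23 without standard tree 7 (4.67%, where 2.39% did). It was 31 without standard tree 9 (6.30%, where 2.06% did) and 20 without standard tree 10 (4.07%, where 1.74% did). Without standard tree 8 it was 105 (21.3%, where 2.66% did). It was also higher without pillar tree 10, at 79, and it was 54 without pillar tree 4. The share of all tested genes is not given for either of these. In the 6 trees of lane 6 alone, 46 members met the criteria (9.35%, where 6.11% of all tested genes did), 10 of them among the 63. There 135 members had groups that did not overlap (27.4%), a share just under the 28.6% of all tested genes.

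**Figure D1:**
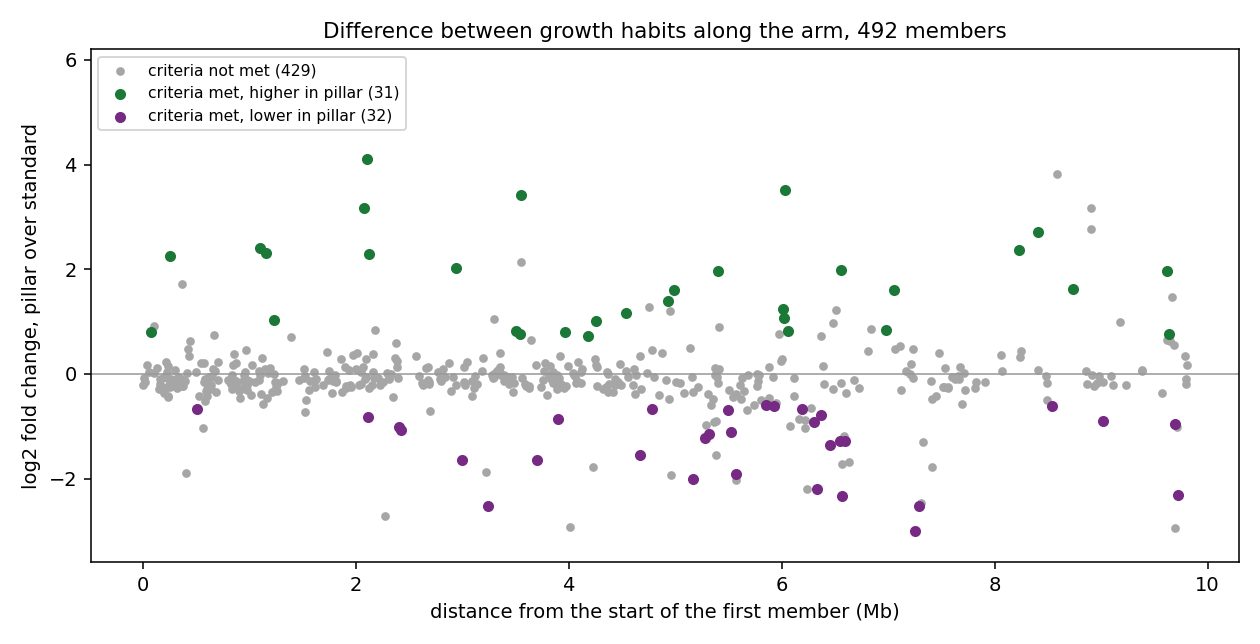
Log2 fold change (pillar over standard, on log2(TPM + 0.5)) of each of the 492 members against the distance of its start from that of the first member, in Mb. Green points are the 31 members that met the criteria and were higher in pillar trees, purple points the 32 that were lower, and grey points the other 429, most of which lie close to 0.

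The values by tree were then set side by side. For each gene the 8 trees were ordered by level and the widest gap between neighbours in that order was taken, and a gap of at least 1 on the log2(TPM + 0.5) scale was called wide. A wide gap was found for 66 members (13.4%), where 4.92% of all tested genes had one. None of the 66 gaps parted the 4 pillar trees from the 4 standard trees. That split was rare, at 21 of all 20055 tested genes, so its absence does not set the arm apart. Of the 21, 18 lay on the rest of Pp02, all beyond 17 Mb. Among the 66, 45 fell into 4 arrangements in which standard tree 8 stood with pillar trees. Those 4 arrangements held 9.15% of members and 0.414% of all tested genes. They did not end at 10 Mb, since they held 23 of 257 genes (8.95%) from 10 to 17 Mb of Pp02, and 3 of 1685 genes (0.178%) beyond. Pillar tree 8 and all 4 standard trees were read in the same lane, so the arrangements divide trees within a lane. They were found after the values were seen, so they are descriptions and carry no test.

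**Figure D2:**
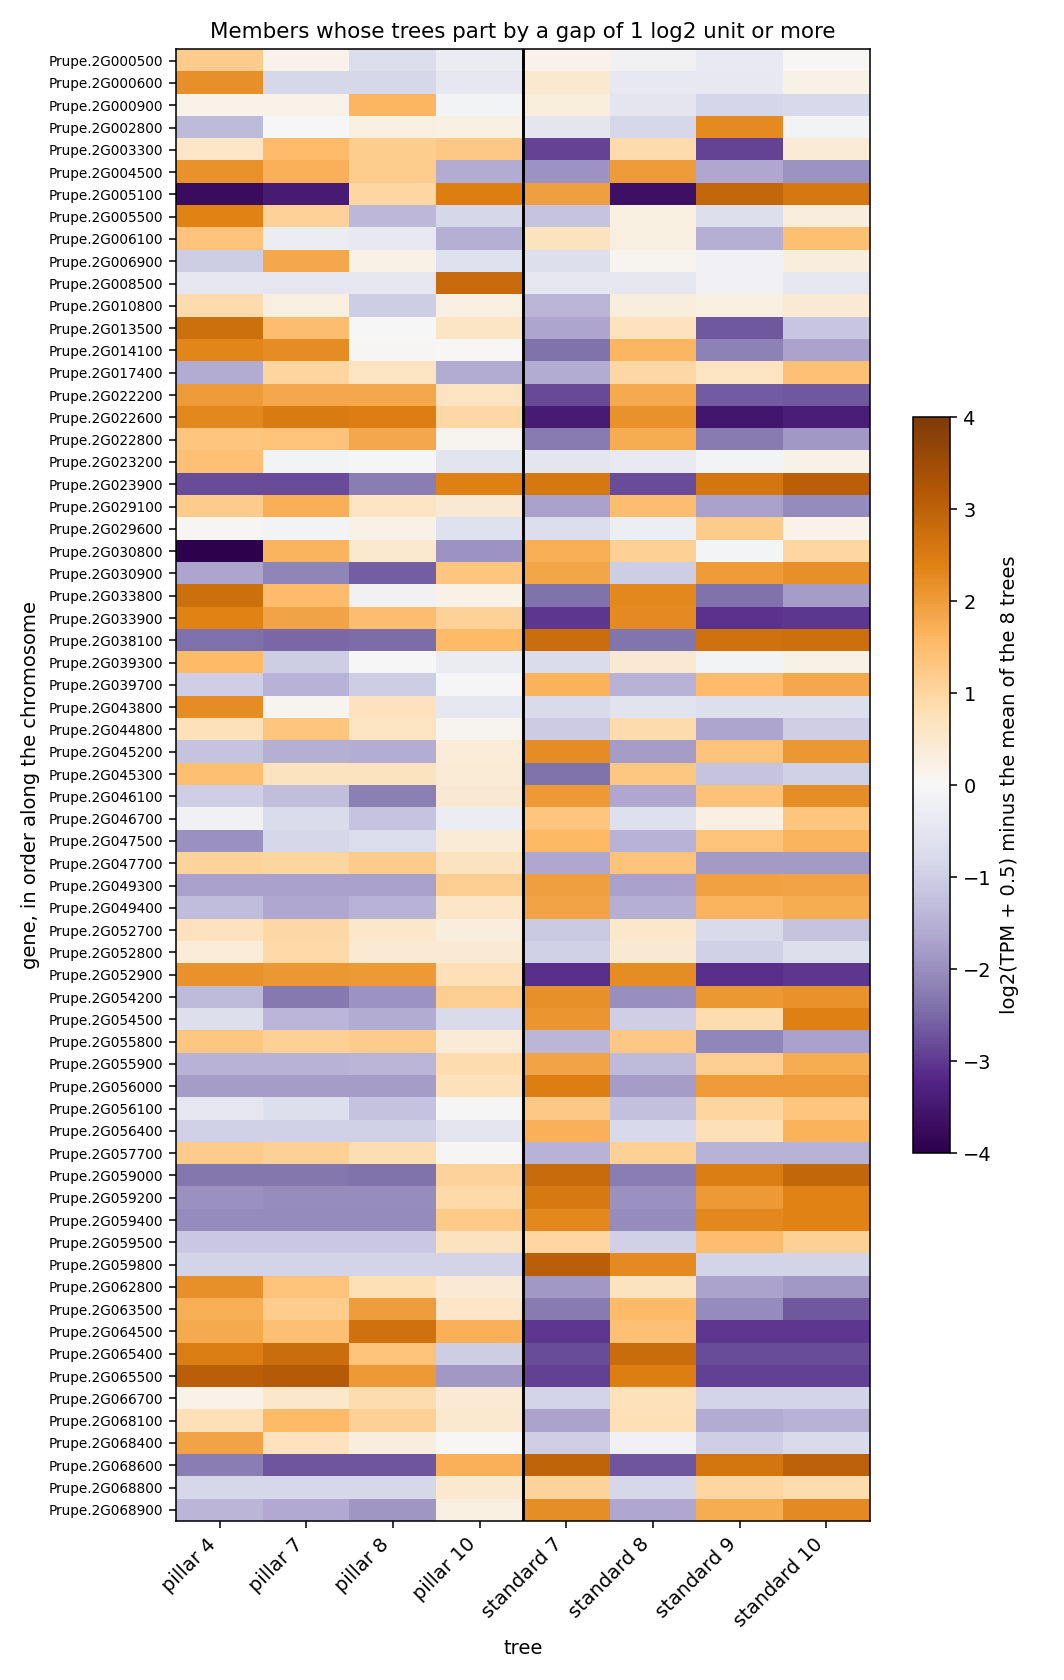
Level of the 66 members with a wide gap, in order along the chromosome, in the 4 pillar trees (left) and the 4 standard trees (right). Colour gives log2(TPM + 0.5) minus the mean of the 8 trees, cut at 4 either way. Standard tree 8 carries the colour of pillar trees 4, 7 and 8 in most rows, and pillar tree 10 is often paler than the trees it sits with.

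In the first arrangement, all 4 pillar trees and standard tree 8 were high, and standard trees 7, 9 and 10 were low. It held 20 members. Prupe.2G022600 (start 2200196), a gene without annotation, had 29.9, 34.8, 33.6 and 11.5 TPM in pillar trees 4, 7, 8 and 10, against 0.0704, 26.9, 0.0466 and 0.0898 TPM in standard trees 7, 8, 9 and 10. Standard tree 8 lay inside the pillar range, so the groups overlapped. The log2 fold change was 4.10 ± 1.19 (SE), the largest on the arm, and did not pass limma's test across all genes (adjusted p = 0.798, exact two-sided permutation p = 0.0571, where 4 against 4 trees cannot go below 0.0286).

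Several further members of that arrangement were close to 0 in standard trees 7, 9 and 10, of which 5 are given here. Prupe.2G022200 (start 2168499) had 18.8, 16.4, 16.2 and 6.91 TPM in pillar trees 4, 7, 8 and 10, against 0.173, 15.9, 0.258 and 0.249 TPM in standard trees 7, 8, 9 and 10. Prupe.2G033900 (start 3644172) had 22.3, 15.7, 11.7 and 8.65 TPM in the pillar trees, against 0.0342, 20.6, 0.0170 and 0.0327 TPM in the standard trees, in the same tree order. Prupe.2G052900 (start 6128240) had 18.5, 18.01, 17.4 and 6.88 TPM in the pillar trees, against 0, 20, 0 and 0.0404 TPM in the standard trees. In all 3 genes pillar tree 10 was the lowest pillar tree and standard tree 8 was level with the others. Prupe.2G062800 (start 8317247) had 7.55, 4.13, 2.61 and 1.93 TPM in the pillar trees, against 0, 2.37, 0.0485 and 0 TPM in the standard trees. Prupe.2G064500 (start 8678318), a gene region of only 207 bases, had 13.8, 10.7, 26.1 and 12.7 TPM in the pillar trees, against 0, 10.4, 0 and 0 TPM in the standard trees. It was the 1 member of the 45 whose groups did not overlap, by the narrow margin between pillar tree 7 and standard tree 8, and it rested on a mean of 28.8 reads in pillar trees and 4.75 reads in standard trees (log2 fold change 3.83 ± 0.95 SE, limma adjusted p = 0.596, exact permutation p = 0.0286).

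Annotated genes of this arrangement had varied functions. Prupe.2G045300, a carboxylesterase (CXE17; such enzymes cleave ester bonds), had 514, 301, 303 and 250 TPM in pillar trees 4, 7, 8 and 10, against 35.5, 462, 84.1 and 97.5 TPM in standard trees 7, 8, 9 and 10. Prupe.2G063500, an alpha/beta-hydrolase, had 29.4, 19.8, 35.5 and 12.99 TPM in the pillar trees, against 1.39, 25.7, 1.72 and 0.913 TPM in the standard trees. Prupe.2G044800, a cystatin (an inhibitor of cysteine proteases), had 134, 198, 125 and 83.7 TPM in the pillar trees, against 38.3, 148, 24.8 and 40.2 TPM in the standard trees. These 3 genes, and the annotated genes named next, had reads in all 8 trees. Prupe.2G055800, an adaptin (a subunit of vesicle coat adaptors), had 77.1, 67.6, 72.1 and 40.8 TPM in the pillar trees, against 11.6, 75.1, 6.88 and 9.07 TPM in the standard trees. Prupe.2G022800, a protein of the unknown-function family DUF3411, had 16.9, 17.6, 24.3 and 6.89 TPM in the pillar trees, against 0.969, 23.3, 0.963 and 1.44 TPM in the standard trees. A neighbouring pair annotated as ubiquitin-specific protease 12, which removes ubiquitin from proteins, was fainter. Prupe.2G052700 averaged 2.08 ± 0.497 TPM in pillar trees and 0.732 ± 0.810 TPM in standard trees (SD over 4 trees), and Prupe.2G052800 averaged 1.23 ± 0.328 TPM in pillar trees and 0.398 ± 0.493 TPM in standard trees. Reads of such similar neighbours may be shared between them, so their separate levels are uncertain.

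The second arrangement, with standard trees 7, 9 and 10 and pillar tree 10 high and the other 4 trees low, held 18 members, and no gene on the rest of Pp02. Pillar tree 10 was thus on the high side in both the first and the second arrangement. Prupe.2G038100 (start 4106955), annotated as an NADPH:quinone oxidoreductase, which reduces quinones, had 0.0304, 0, 0.0281 and 7.85 TPM in pillar trees 4, 7, 8 and 10, against 19.1, 0.0581, 17.9 and 18.6 TPM in standard trees 7, 8, 9 and 10. Prupe.2G068600 (start 9786086), without annotation, had 0.188, 0, 0 and 10.1 TPM in the pillar trees, against 24.4, 0, 19.2 and 25.9 TPM in the standard trees. Prupe.2G023900 (start 2363173), without annotation, had 0, 0, 0.236 and 18.03 TPM in the pillar trees, against 20.1, 0, 20.5 and 28.2 TPM in the standard trees. Pillar tree 10 lay below the 3 high standard trees and far above the other pillar trees in each. Prupe.2G030900 (start 3337955), without annotation, had 2.36, 1.58, 1.01 and 22.4 TPM in the pillar trees, against 32.6, 3.98, 36.6 and 40.9 TPM in the standard trees. Prupe.2G049400, a mitochondrial transcription termination factor family protein, had 0.547, 0.331, 0.449 and 3.37 TPM in the pillar trees, against 9.09, 0.406, 7.62 and 8.37 TPM in the standard trees. The limma p-values of the 18 members were at least 0.0274 before adjustment and 0.902 after it.

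A further 4 members had standard trees 7, 9 and 10 high with pillar tree 10 on the low side, and 3 members had pillar trees 4, 7 and 8 and standard tree 8 high with pillar tree 10 on the low side. Among the 4, Prupe.2G056400 had 0, 0, 0 and 0.201 TPM in pillar trees 4, 7, 8 and 10, against 2.67, 0.0545, 1.17 and 2.605 TPM in standard trees 7, 8, 9 and 10. Among the 3, Prupe.2G065500 (start 8995039) had 30.9, 32.96, 15.4 and 0.544 TPM in the pillar trees, against 0, 20.6, 0 and 0 TPM in the standard trees. Its neighbour Prupe.2G065400 had 18.7, 22.8, 8.25 and 1.19 TPM in the pillar trees, against 0, 23.4, 0 and 0 TPM in the standard trees. Prupe.2G065400 ends at 8995033 on the same strand, right beside Prupe.2G065500. Whether they belong to the same transcript was not tested, so they may not count as separate members.

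**Figure D3:**
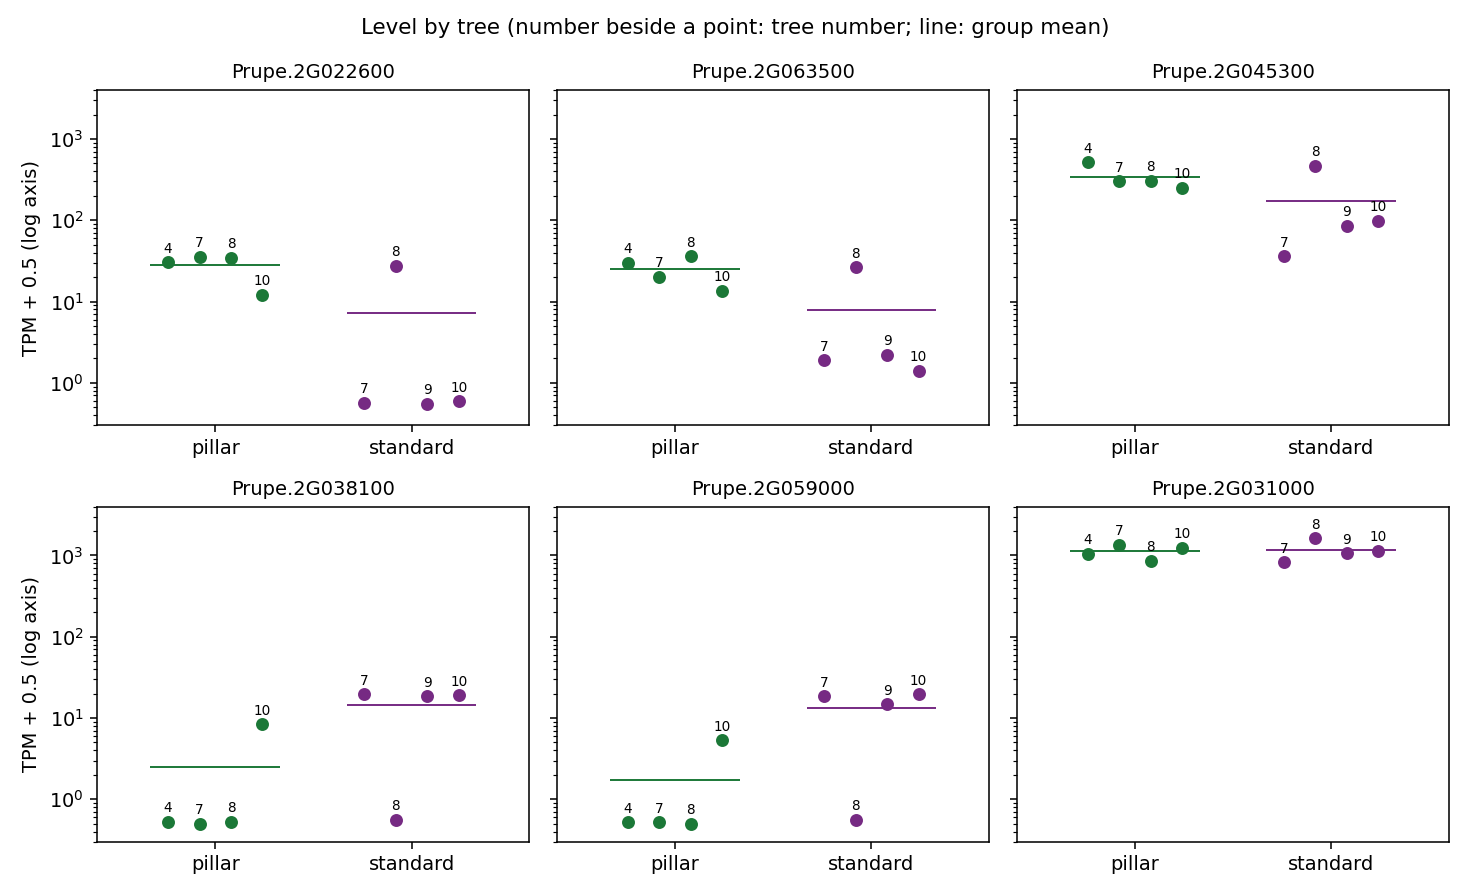
TPM + 0.5 on a log axis for 6 members in pillar trees (left of each panel) and standard trees (right), 1 point a tree with its number and a line at the group mean. Prupe.2G022600, Prupe.2G063500 and Prupe.2G045300 have standard tree 8 at the pillar level, Prupe.2G038100 and Prupe.2G059000 have standard tree 8 with the low pillar trees and pillar tree 10 in between, and Prupe.2G031000 is even across all 8 trees.

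The other 21 wide gaps fell outside the 4 arrangements. Pillar tree 4 alone was high in 8 members and standard tree 9 alone in 2, and each of the remaining 11 members had a grouping of the trees found in no other of the 21. Among them Prupe.2G005500, annotated as lipoxygenase 2, an enzyme of jasmonate synthesis in Arabidopsis, had 138, 55.1, 9.77 and 14.3 TPM in pillar trees 4, 7, 8 and 10, against 11.2, 31.6, 16.4 and 32.1 TPM in standard trees 7, 8, 9 and 10. Prupe.2G005100 (start 496543), without annotation, had 0.277, 0.453, 20.2 and 56.5 TPM in the pillar trees, against 40.3, 0.331, 77.2 and 61.3 TPM in the standard trees, so that pillar trees 8 and 10 stood with standard trees 7, 9 and 10. Prupe.2G003300, a late embryogenesis abundant protein, was listed at 0 in standard trees 7 and 9 only, and had between 4.34 and 10.1 TPM in the other 6 trees.

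Disease resistance genes made up 25 members, by annotation in a gene table of the study that was chosen on these same trees, so their direction is not independent evidence. Of the 25, 6 were higher and 19 lower in pillar trees by the fitted fold, with a median log2 fold change of -1.18. At an unadjusted p of at most 0.05 there were 16, where 4.77% of all tested genes passed. After adjustment 0 passed, where 0.12% of all tested genes did. Of all 72 members in that gene table, these 25 included, 50 passed at that unadjusted p. The groups overlapped in all 25, where 2.93% of all tested genes had groups that did not overlap. In all 25 no standard tree lay closer to the pillar mean than standard tree 8. The same held for 67 of 72 gene table members, 50.0% of all 492 members and 30.3% of all tested genes. A wide gap was found in 11 (44%), of which 10 (40% of the 25) were of the 4 arrangements. For the 72 gene table members the shares were 48.6% and 41.7%, and for all tested genes 4.92% and 0.414%. The gene table was chosen for differences in these same trees, so these shares are not shown to be particular to resistance genes. NB-LRR genes are a large family, reads that fit several copies can be assigned to any of them, and single levels are uncertain for that reason.

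A row of such genes, Prupe.2G059000, Prupe.2G059200 and Prupe.2G059400, was followed by Prupe.2G059500, without annotation, all within 85.4 kb. Prupe.2G059000 (start 7341149) had 0.0195, 0.0213, 0 and 4.83 TPM in pillar trees 4, 7, 8 and 10, against 17.98, 0.0559, 14.2 and 19 TPM in standard trees 7, 8, 9 and 10. Prupe.2G059200 had 0.0231, 0, 0 and 3.34 TPM in the pillar trees, against 11.3, 0.0221, 7.76 and 10.1 TPM in the standard trees. All 4 neighbours had pillar tree 10 and standard trees 7, 9 and 10 high. Outside that row, Prupe.2G054200 had 2.02, 0.786, 1.16 and 13.5 TPM in the pillar trees, against 27.5, 1.08, 25.8 and 27.4 TPM in the standard trees. Prupe.2G068900 had 0.337, 0.220, 0.0831 and 2.14 TPM in the pillar trees, against 9.63, 0.193, 7.00 and 10.1 TPM in the standard trees. Prupe.2G068100 was of the opposite direction, at 2.32, 4.20, 3.03 and 1.77 TPM in the pillar trees, against 0, 2.32, 0.0491 and 0.0945 TPM in the standard trees. Prupe.2G014100 (start 1253393), also higher in pillar trees, had 12.7, 11.8, 2.23 and 2.16 TPM there, against 0, 7.46, 0.0886 and 0.313 TPM in the standard trees.

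Of the 467 members outside the disease resistance list, 47 (10.1%) met the p, fold and read criteria, 55 (11.8%) had a wide gap and 35 (7.49%) were of the 4 arrangements. Those 467 include the members without annotation, so resistance genes may remain among them. Among the 420 members absent from the study's gene table, 13 (3.095%) met the criteria, 31 (7.38%) had a wide gap and 15 (3.57%) were of the 4 arrangements. The shares of all tested genes were 2.23%, 4.92% and 0.414%. The gene table was chosen for differences in these same trees, so lower shares outside it follow from that choice. All tested genes include those of the gene table, so the comparison is not of like sets. The remaining lists were short and do not give the gene content of the arm. Annotation covered only 72 of the 492 members, 57 of them with a description, and those genes were chosen for differences in these same trees. The single member annotated as a receptor kinase, Prupe.2G048900, was listed at 0 in pillar trees 4, 7 and 8 and standard tree 8. It had 0.388 TPM in pillar tree 10 and 1.65, 0.754 and 1.24 TPM in standard trees 7, 9 and 10. Such kinases sense signals at the cell surface. The single member annotated as a transcription factor, the C2H2 zinc finger gene Prupe.2G054400, averaged 3.49 ± 1.51 TPM in pillar trees and 7.26 ± 3.21 TPM in standard trees. The ribosomal protein S13A gene Prupe.2G000700 averaged 7.597 ± 1.27 TPM in pillar trees and 4.68 ± 3.096 TPM in standard trees. The pectin lyase-like gene Prupe.2G014800, of a family that acts on cell wall pectin, averaged 1.69 ± 0.775 TPM in pillar trees and 0.647 ± 0.601 TPM in standard trees (SD over 4 trees). No member of these lists had an adjusted p under 0.05 with limma. None of the annotated members was a cytochrome P450, glycosyltransferase, photosynthesis or heat shock gene, and members without annotation could not be searched.

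Genes of intracellular transport and export were also among the annotated members. Prupe.2G039900, a dynamin-related protein (dynamins pinch off membranes), had 135, 85.0, 66.3 and 74.5 TPM in pillar trees 4, 7, 8 and 10, against 33.1, 83.6, 31.1 and 38.3 TPM in standard trees 7, 8, 9 and 10. Prupe.2G035400, a major facilitator transporter, had 4.09, 1.18, 1.37 and 3.25 TPM in the pillar trees, against 11.05, 3.04, 6.76 and 16.7 TPM in the standard trees. Standard tree 8 lay within the pillar range in these genes, while the MATE efflux gene Prupe.2G037200 was different. It had 3.15, 2.52, 4.61 and 5.2 TPM in the pillar trees, against 5.19, 11.4, 5.07 and 8.71 TPM in the standard trees, with standard tree 8 the highest of all.

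Along the chromosome the arranged genes were spread rather than contiguous. The first of the 45 was Prupe.2G004500 (start 458463) and the last Prupe.2G068900 (start 9814085). They formed 32 runs of adjacent members, 24 of a single gene, and the longest run was of 4. Counted in windows of 1 Mb from position 0, the 10 windows held 1, 1, 4, 4, 2, 8, 10, 5, 5 and 5 of them, out of 82, 61, 59, 62, 54, 53, 42, 34, 18 and 27 members. Opposite directions occurred side by side. From Prupe.2G055800 to Prupe.2G056100, 31.6 kb, the adaptin gene above was high in pillar trees and standard tree 8. The next gene, the SNARE-like Prupe.2G055900 (SNAREs fuse vesicles with membranes), had 0.189, 0.180, 0.196 and 2.93 TPM in pillar trees 4, 7, 8 and 10, against 6.45, 0.248, 3.60 and 5.81 TPM in standard trees 7, 8, 9 and 10. Prupe.2G056000 had 0, 0, 0 and 2.44 TPM in the pillar trees, against 9.00, 0, 6.60 and 6.52 TPM in the standard trees. The regions of the last 2 genes overlap, so their reads may not be separable. A second adaptin gene, Prupe.2G056200, had 8.79, 4.66, 2.61 and 7.70 TPM in the pillar trees, against 20.05, 5.34, 17.7 and 19.3 TPM in the standard trees, the direction opposite to Prupe.2G055800.

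A measure that needs no wide gap set standard tree 8 apart, and pillar tree 10 less so. For each member, it was recorded which standard tree lay closest to the pillar mean on the log2(TPM + 0.5) scale. It was standard tree 8 for 246 of 492 members (50.0%), standard tree 9 for 20.9%, standard tree 7 for 16.5% and standard tree 10 for 12.6%. Standard tree 8 was nearest for 122 of 257 genes (47.5%) from 10 to 17 Mb of Pp02, for 28.7% of genes beyond 17 Mb and for 29.7% on the other chromosomes. Among the 426 members with no wide gap it was nearest for 192 (45.1%). By window, from the first to the tenth, the share was 32.9, 41.0, 47.5, 45.2, 51.9, 60.4, 88.1, 64.7, 44.4 and 40.7%. It was over 50% in 4 of the 10 windows, against 2 of 21 windows on the rest of Pp02 and 1 of 189 on the other chromosomes, counting windows of at least 20 genes there. The 2 on the rest of Pp02 lie just past the arm, at 54.1% from 11 to 12 Mb and 68.0% from 12 to 13 Mb.

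The pillar tree closest to the standard mean was pillar tree 10 for 182 members (37.0%), against 26.1% of genes from 10 to 17 Mb of Pp02, 28.01% beyond 17 Mb and 27.4% on the other chromosomes. Among the 426 members with no wide gap, pillar tree 10 was nearest for 135 (31.7%). Its share over all members thus rested in part on the members with a wide gap. By window its share was highest, 59.5%, in the seventh window too. Genes within a window share the same 8 libraries, so these shares describe the trees and carry no test.

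**Figure D4:**
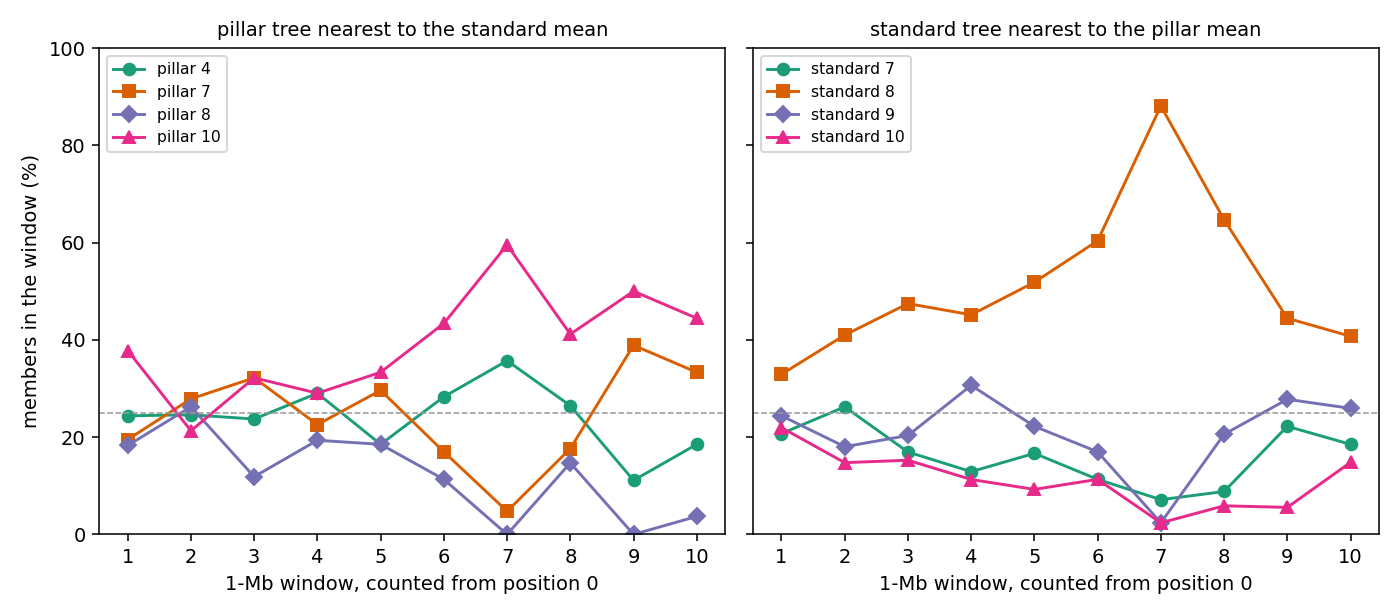
Share of members, in percent, for which each pillar tree was the one nearest to the standard mean (left) and each standard tree the one nearest to the pillar mean (right), in 10 windows of 1 Mb. The dashed line marks equal shares among the trees; standard tree 8 reaches 88.1% and pillar tree 10 reaches 59.5% in the seventh window.

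Pillar tree 10 lay between the other trees in most members of the 4 arrangements, though not in all. The 20 and 18 members below were sorted with pillar tree 10 on the high side of the gap, which limits how low it can be. In the 20 members with all pillar trees and standard tree 8 high, its level was 0.525 of the mean of the other 3 pillar trees at the median, between 0.241 and 0.869, and it was the lowest pillar tree in 16. In the 18 members of the second arrangement its level was 0.451 of the standard median, between 0.257 and 0.887. Standard tree 8 in those 20 members was at 1.09 of the pillar median, between 0.704 and 2.62. On the rest of Pp02, where 23 of the 26 genes of the 4 arrangements lay between 10 and 17 Mb, the values were different. There, 16 genes had the pillar side high, with pillar tree 10 at 0.736 of the mean of the other pillar trees at the median, between 0.473 and 2.35. For all 23 arm members of that direction, including the 3 with pillar tree 10 on the low side, it was at 0.461, between 0.0206 and 0.869. Another 10 genes had standard trees 7, 9 and 10 high, with pillar tree 10 at 0.0244 of their mean at the median and at most 0.187. For the 22 arm members of that direction, pillar tree 10 was at 0.413 of the same mean, between 0.0936 and 0.785, so the ranges overlapped only in part. That contrast between the arm and the rest of Pp02 was not tested.

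**Figure D5:**
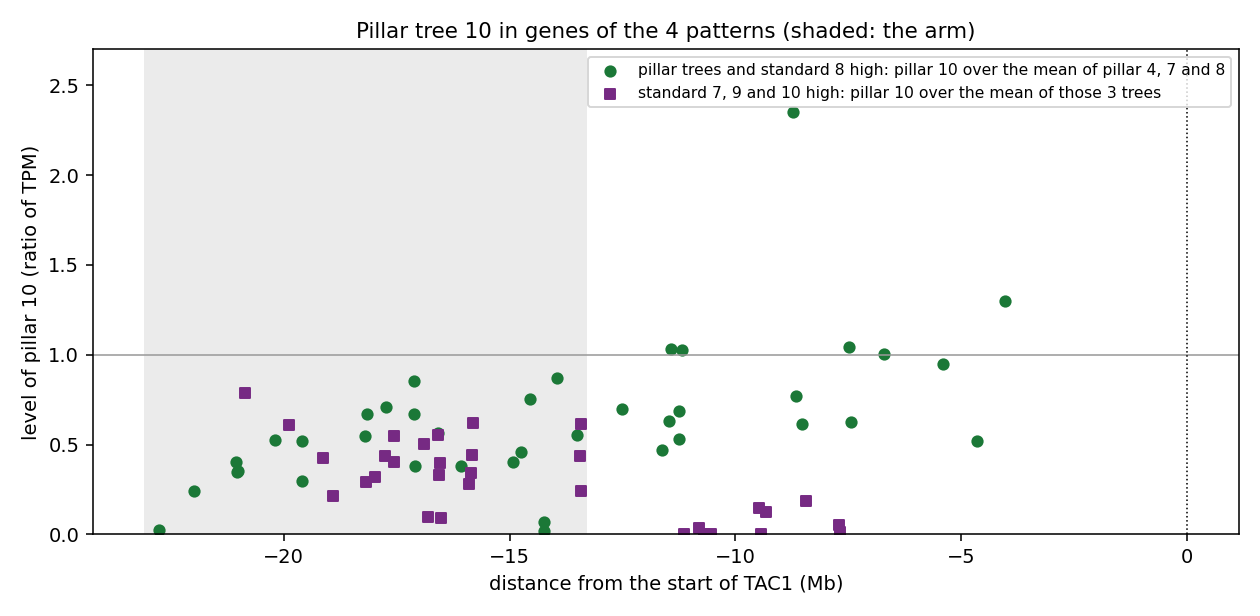
Level of pillar tree 10 as a ratio of TPM in the genes of the 4 arrangements on Pp02, by distance from the start of TAC1 in Mb, the arm shaded. Circles give pillar tree 10 over the mean of pillar trees 4, 7 and 8 where the pillar side was high, squares pillar tree 10 over the mean of standard trees 7, 9 and 10 where those were high; squares lie between 0.0936 and 0.785 on the arm and at most 0.187 beyond it.

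The dependence of the comparison on standard tree 8 was large. With standard tree 8 left out, 22 members (4.47%) had an adjusted p under 0.05 with limma, where 0.424% of all tested genes did. With all 8 trees 0 members did, and 0 with any other tree left out. All 22 parted the trees as in 1 of the 4 arrangements, which were seen in these same values. Leaving out the tree that stood with the other growth habit lowers the p-values of such genes by construction. The adjusted p-values below are therefore descriptions and not support for a difference. Of these 22, 16 were higher and 6 lower in pillar trees. Prupe.2G022600 then had a log2 fold change of 5.50 ± 0.37 (SE, limma adjusted p = 0.00049) and Prupe.2G064500 one of 4.94 ± 0.30 (limma adjusted p = 0.00026). The remaining standard trees were at or near 0 TPM in both genes, where the added 0.5 TPM keeps their spread small. The largest negative one was that of Prupe.2G068900, at -3.24 ± 0.49 (limma adjusted p = 0.042). Standard tree 8 had 17.2 TPM of TAC1, the lowest of the standard trees and above all 4 pillar trees.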

How the data were processed

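The authors trimmed the 50 bp single reads from Illumina libraries of total RNA and mapped them to peach genome version 2 with the CLC RNA-Seq tool (at most 10 hits per read, similarity 0.95, length fraction 0.8). The tool's version is not given in the sources used here. They deposited TPM per gene region and tree in 1 table. Its other columns, not used here, hold the authors' own comparison of pillar and standard trees, made by the authors in CLC: a fold change and a group mean (score), a log2 fold change, and a p-value raw and adjusted. Depth was recovered from TPM and gene length, as whole reads within 0.05 of a read for 100% of values up to 10000 reads.

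Genes averaging 0.5 TPM or more over the trees were tested with limma 3.58.1 (R 4.3.3, moderated by trend of the mean, two-sided) on log2(TPM + 0.5), pillar over standard, with Benjamini-Hochberg adjustment over 20055 genes; tested on simulated data. Exact permutation tests used 4 against 4 trees. The p-values set the difference between growth habits against the spread between trees, which limma moderates over all tested genes. Alternatives were pseudocounts 0.1 and 1, RPKM, upper-quartile scaling, no filter, a minimum of 5 reads, limma voom on recovered reads, lane 6 alone, a tree-number block and each tree left out. The members, lists and tests were chosen with earlier results of these data known. Genes named were, by rule, the 5 highest and 5 lowest log2 fold changes among those meeting the criteria, the widest ranges over trees, the most abundant member per window, 1 gene per annotation list and the edges of membership. Other annotated or arranged genes were named after their values were seen. Gene annotation came from a table of the study, which covers 72 members. Shoot tip markers, gene sequences and the gene left out were not analysed here.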

Additional observations from a re-analysis of the deposited data

Results flagged for a closer look

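Among the genes named by rule, 70 groups of 4 trees were examined for a tree whose gap to the nearest of the others took up nearly the whole range of its group, and 22 groups in 20 genes held such a tree. Chance gives about 1 in 20 groups, but many of these genes were named for their wide differences between trees and all share the same 8 trees, so the count cannot be read against that share. Pillar tree 10 was the tree in 11, standard tree 8 in 10 and pillar tree 4 in 1.

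Pillar tree 10 stood above the other pillar trees at 18.03 TPM in Prupe.2G023900, 22.36 TPM in Prupe.2G030900, 0.3876 TPM in Prupe.2G048900, 13.49 TPM in Prupe.2G054200, 2.436 TPM in Prupe.2G056000, 4.831 TPM in Prupe.2G059000, 3.342 TPM in Prupe.2G059200, 10.1 TPM in Prupe.2G068600 and 2.137 TPM in Prupe.2G068900. It stood below them at 96.37 TPM in Prupe.2G052600 and 6.879 TPM in Prupe.2G052900. In Prupe.2G052600, the most abundant member of its window, the other pillar trees had between 131 and 137 TPM.

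Standard tree 8 stood above the other standard trees at 7.464 TPM in Prupe.2G014100, 15.93 TPM in Prupe.2G022200, 26.87 TPM in Prupe.2G022600, 20.6 TPM in Prupe.2G033900, 1.938 TPM in Prupe.2G052700, 20 TPM in Prupe.2G052900, 25.75 TPM in Prupe.2G063500, 10.44 TPM in Prupe.2G064500 and 20.63 TPM in Prupe.2G065500, and below them at 1.079 TPM in Prupe.2G054200. Pillar tree 4 stood above the other pillar trees at 5.742 TPM in Prupe.2G054400.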

How the results depend on the processing

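The count of members with an adjusted p under 0.05 was 0 in every setting but 1, and ranged between 0 and 22 when each tree was left out in turn, 22 being without standard tree 8. The count meeting the p, fold and read criteria ranged between 20 and 105 over the trees left out, and the count of members whose groups did not overlap between 21 and 143. In lane 6 alone the count without overlap was 135. The tree numbers 7, 8 and 10 occur in both growth habits, but correlations of deviations of 0.29, 0.096 and -0.091 gave no sign that they pair trees. With the number as a replicate block, 72 members met the criteria, 33 of them shared with the 63, and 0 had an adjusted p under 0.05. A gap of at least 2 on the log2 scale left 29 members, 23 of them in the 4 arrangements. Pillar tree 4 was nearest to the standard mean for 20.7% of members with RPKM and 20.1% with upper-quartile scaling, against 25% with TPM, and standard tree 10 nearest to the pillar mean for 16.9% with upper-quartile scaling.

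Log2 fold changes that turned sign were near 0, except that of Prupe.2G005100, at -1.89 with all 8 trees. Prupe.2G026000, Prupe.2G031000 and Prupe.2G063900 were at 0.00098, 0.0083 and 0.0043 with RPKM, at 0.020, 0.028 and 0.023 with upper-quartile scaling, and at 0.00033, 0.0093 and 0.0035 with voom. In lane 6 alone, Prupe.2G005100 was at 0.77, Prupe.2G038800 at 0.17 and Prupe.2G058400 at -0.14. With the replicate block Prupe.2G038800 was at 0.064, Prupe.2G058400 at -0.11 and Prupe.2G065900 at 0.054. Over the trees left out, Prupe.2G002600 ranged between -0.062 and 0.40, Prupe.2G009800 between -0.34 and 0.046, Prupe.2G026000 between -0.22 and 0.059, Prupe.2G031000 between -0.18 and 0.15, Prupe.2G038800 between -0.30 and 0.088, Prupe.2G058400 between -0.046 and 0.17, and Prupe.2G063900 between -0.22 and 0.091. The cause was not tested. The other 97 counts, medians and shares and 554 log2 fold changes kept their direction and their side of the threshold. Depth limits the faint genes most, since Prupe.2G002600, the faintest member, averaged 5 reads in pillar trees and 4 in standard trees.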
